A study of Mus musculus with 18 samples.

Results

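The 10 immediate early and stress response genes Fos, Fosb, Jun, Junb, Egr1, Egr2, Nr4a1, Atf3, Ier2 and Dusp1 were followed across 3 dendritic cell populations of the mouse spleen. The list was drawn up with earlier results of these data known, and probe sets were then taken by gene name. Every probe set, a group of short probes against a transcript, whose annotated symbol was one of the 10 was taken. This gave 18 of the 36701 probe sets, and all 10 genes were among the 12193 that could be tested. The control population, per the series' design, was the conventional dendritic cell (cDC). It was set beside the interferon-producing killer dendritic cell (IKDC) and the plasmacytoid dendritic cell (PDC). Each population had 2 samples, prepared separately, and each sample was hybridised to the 3 Affymetrix array types U74A, U74B and U74C, for 18 arrays. Strain, age, treatment, sorting scheme and whether separate animals were used are not given in the sources used here. Because of this, p-values reflect only how these samples scatter, which may be partly technical.

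Immediate early genes are transcribed soon after a cell receives a signal, without the need for new protein. Mitogen-activated protein kinases carry the signal to factors already bound at the promoters, such as serum response factor with its ternary complex partners and CREB, and the transcripts are usually short-lived. Many of the products are transcription factors: Fos and Jun proteins pair through leucine zippers to form AP-1, Egr proteins bind DNA through zinc fingers, and Nr4a proteins are orphan nuclear receptors. Others, such as the phosphatase Dusp1, switch the kinases off again. In spleen leukocytes the genes respond to receptor engagement and to stress, and they are also known to respond to the preparation of cells from a tissue.

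Values are signal intensities, scaled by the authors so that every array has a similar mean. Median signals ran from 51.7 to 87.2 over the arrays, and log2 signals correlated at 0.785 to 0.953 within a population and at 0.707 to 0.817 between populations. The labels were set against marker genes: 12 of 13 tested IKDC and NK cell markers were higher in IKDC than in cDC, 10 of 10 PDC markers were higher in PDC than in cDC, and 8 of 13 cDC markers were lower in IKDC than in cDC. In PDC 4 of those 13 were lower than in cDC and 1 was higher. Monocyte and macrophage markers were present in the cDC samples, at a summed signal of 10851.7 and 14809.6, against 2649.5 and 3525.5 in IKDC and 5445.6 and 6128 in PDC. All 14 tested markers of that list had a signal of at least 60 in both cDC samples. This held for 7 in both IKDC samples and 9 in both PDC samples. In limma 12 of the 14 were called lower in IKDC than in cDC (median -2.78), beside 2.92% of all tested probe sets. In PDC 8 were called lower than in cDC (median -2.35), beside 1.92%, and 0 were called higher in either. The part of such cells in the results below was not tested. Neutrophil markers summed to 1330.1 and 2215.8 in cDC, 678 and 623 in IKDC, and 1467 and 573 in PDC. In IKDC against cDC all 7 tested neutrophil markers had negative differences, with a median of -1.92, and 2 were called. In PDC against cDC 6 of the 7 were negative and 0 were called in limma, with 4 at an unadjusted p under 0.05. The part of neutrophils in the results was not tested. Erythroid and platelet markers summed to 15593.3 and 18756.5 in IKDC, 1388.4 and 2228.2 in cDC, and 23735.9 and 10448.7 in PDC. For B cell and plasma cell markers the sums were 11633.4 and 7151.9 in IKDC, 1921.9 and 2021.7 in cDC, and 14651.2 and 10149.3 in PDC. For T cell markers they were 1953.8 and 1417 in IKDC, 966.1 and 723.6 in cDC, and 1333.3 and 1461.6 in PDC. The part of lymphocytes in the results was not tested. In bulk samples, fewer cells of a type and less RNA per cell cannot be told apart.

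A probe set was tested when its signal reached 60 on at least 2 of the 6 arrays of its type, which held for 14 of the 18, covering all 10 genes, and for 23285 probe sets in all. Of these 14, 11 reached 60 on all 6 arrays. The filter can be passed through the population in which a gene is high, so counts over the 14 describe the probe sets that passed and not the whole set. The 4 that did not pass were a further probe set each of Fos, Jun, Egr1 and Atf3, and each reached 60 on at most 1 array. That of Atf3, beside its 2 tested probe sets, read 8.8 and 8.9 in cDC and did not reach 60 in any sample. Atf3 and Junb each had 2 tested probe sets, which are not independent measurements of the gene, and Nr4a1 and Dusp1 had 1 on U74A and 1 on another array type.

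The stretches just before the start site of 5 members are shown as examples that hold a match to a searched motif. Fos, called in no comparison below, is among them. Jun, which was called but had no match in its window, is not. Each is the 150 bases before the start site, 5′ to 3′ on the strand of the gene, from RefSeq on the GRCm38.p6 build. Capitals mark letters that match the cyclic AMP response element core TGACG or its reverse complement, the serum response element (the CArG box), the EGR site GCGNGGGCG or the TATA box TATAAA, each searched on both strands.
Atf3, chr1:191183334-191183483, minus strand: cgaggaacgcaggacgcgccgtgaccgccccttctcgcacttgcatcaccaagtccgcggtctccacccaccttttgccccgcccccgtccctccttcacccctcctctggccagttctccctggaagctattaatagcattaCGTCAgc
Egr2, 1 of its 5 start sites, chr10:67537719-67537868, plus strand: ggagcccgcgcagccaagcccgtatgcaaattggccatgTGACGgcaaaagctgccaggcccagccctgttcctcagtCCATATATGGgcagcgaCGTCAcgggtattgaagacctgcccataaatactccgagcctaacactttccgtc
Nr4a1, chr15:101266696-101266845, plus strand: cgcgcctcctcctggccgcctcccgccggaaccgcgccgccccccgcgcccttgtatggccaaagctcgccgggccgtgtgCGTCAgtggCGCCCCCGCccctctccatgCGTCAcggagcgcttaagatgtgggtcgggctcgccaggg
Junb, chr8:84978749-84978898, minus strand: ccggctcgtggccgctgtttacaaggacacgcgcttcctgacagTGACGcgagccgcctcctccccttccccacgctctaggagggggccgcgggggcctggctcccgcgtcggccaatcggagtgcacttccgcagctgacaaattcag
Fos, chr12:85473740-85473889, plus strand: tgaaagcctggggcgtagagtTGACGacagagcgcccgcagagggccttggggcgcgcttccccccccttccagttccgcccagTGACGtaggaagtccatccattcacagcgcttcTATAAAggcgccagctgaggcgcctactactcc

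In the Egr2 stretch a CArG box lies between a pair of TGACG cores, at 72 to 63 bases before the start site. The Fos stretch holds TGACG at 129 and 66 bases before the start and TATAAA at 33 bases before it. Nr4a1 has TGACG at 69 and 40 bases before the start, with an EGR site between them at 60, and Atf3 has it 7 bases before the start. Windows of 300 bases, 250 before and 50 after the start, were searched for 8 of the 10 members. TGACG was found in 9 of their 12 windows, from all of the 8 genes but Jun, against 20.8% of 32851 windows of the same length over 27025 genes. Egr2 gave 5 of the 12, and some of these overlap. The full cyclic AMP response element TGACGTCA, which contains the core, was found in Dusp1 alone of the 8, against 1.79% of windows. The CArG box was found in Egr2 alone, in 4 of its 5 windows, against 1.63%; 3 of those windows overlap and share 1 box, which leaves 2 distinct boxes. EGR sites were found in Fosb and Nr4a1, against 5.55%, and TATAAA in Fos and Junb, against 13.6%. The TATAAA of Junb lay at bases 1 to 6 from the start site on, and not before it as in Fos. The AP-1 site TGANTCA was found in 0 of the 8, against 7.81%. A match describes the letters in a window and does not show that a factor binds there.

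**Figure D1:**
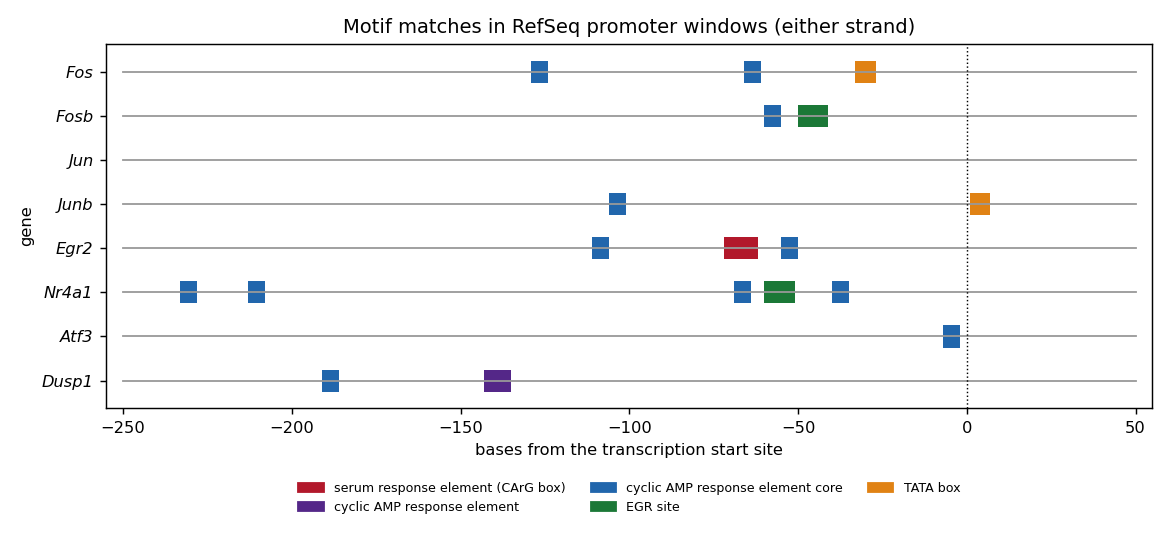
Motif matches on either strand along 1 promoter window of each of 8 member genes; the horizontal axis is the distance in bases from the start site and each coloured box is a match. The core of the cyclic AMP response element appears in 7 of the 8 genes, a CArG box in Egr2, and no match in Jun.

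Differences are on the scale of log2(signal + 16), where the change of a weakly expressed gene is understated. Their standard errors come from limma, a linear model with the spread pooled over the 3 populations, and adjusted p-values from the Benjamini-Hochberg method across the 23285 tested probe sets. The 3 comparisons share their samples, so they are not independent of each other. Members were put into 3 groups by their calls. Atf3, Egr1 and Jun were called lower in IKDC and in PDC than in cDC. Nr4a1 (on U74A), Egr2, Ier2 and Junb were called lower in PDC than in cDC and in IKDC. Fos, Fosb and Dusp1 passed in no comparison. The groups rest on the threshold, and whether they differ was not tested. On U74A both cDC samples of Nr4a1, Egr2, Ier2, Fos, Fosb and Dusp1 were also above all IKDC and PDC samples.

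**Figure D2:**
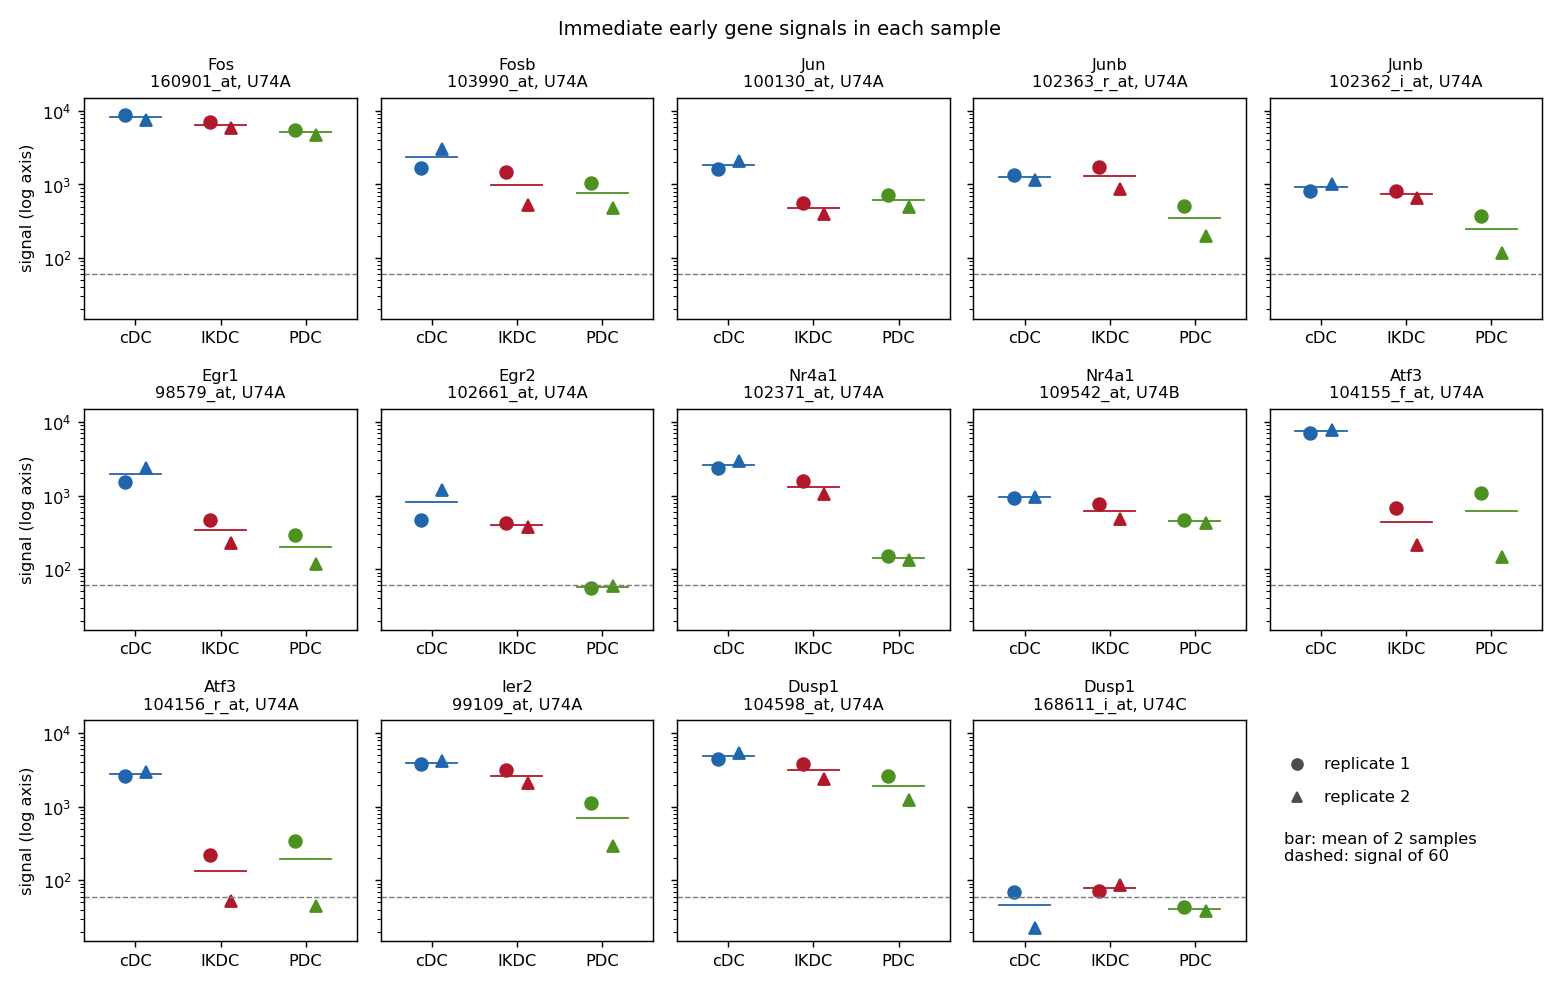
Signal of each tested probe set in the 6 samples, on a log axis, with 1 panel a probe set; circles are replicate 1, triangles replicate 2, bars the mean of 2 samples and the dashed line a signal of 60. Both cDC signals of Atf3, Egr1 and Jun lay above all 4 other signals, and both PDC signals of Egr2 lay under 60.

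Atf3 encodes a leucine zipper factor of the ATF/CREB family that is induced by stress and by Toll-like receptor signals and represses inflammatory cytokine genes. Its first probe set, of the _f_at design, read 7177 and 7789.5 in cDC, 673 and 212 in IKDC, and 1095 and 145 in PDC. Both cDC samples were far above the other 4, and the IKDC and PDC samples overlapped. The mean in cDC was 16.9 times that in IKDC and 12.1 times that in PDC. On the log2 scale Atf3 was lower in IKDC by -4.24 ± 0.72 (SE; adjusted p = 0.00476) and lower in PDC by -4.15 ± 0.72 (adjusted p = 0.00787). The second probe set, of the _r_at design, gave 2588 and 2997 in cDC, 219 and 52.5 in IKDC, and 347 and 45.2 in PDC, in the same order of populations. Its differences were -4.46 ± 0.71 (adjusted p = 0.00315) and -4.23 ± 0.71 (adjusted p = 0.00647). The call of this second probe set in IKDC against cDC held in every alternative tried. IKDC and PDC differed by -0.09 on the first probe set, with a 95% interval of -1.68 to 1.49. Without cDC replicate 2 the first probe set reached an adjusted p of 0.0509 in IKDC. In PDC the calls ended without either cDC sample, at 0.0634 and 0.076 on the first probe set and 0.0553 and 0.0699 on the second. Without PDC replicate 2 the difference of the first probe set between PDC and cDC was -2.75.

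Egr1 encodes a zinc finger transcription factor that is induced through serum response factor. Its signal was 1535 and 2382.5 in cDC, 464 and 224 in IKDC, and 289 and 116 in PDC. Both cDC samples were above all others, and the IKDC and PDC samples overlapped. The cDC mean was 5.69 times that of IKDC, a difference of -2.51 ± 0.44 (adjusted p = 0.00574), and 9.67 times that of PDC, a difference of -3.26 ± 0.44 (adjusted p = 0.00154). The call against IKDC ended without IKDC replicate 2 (adjusted p = 0.063) and without cDC replicate 2 (0.0759), and the call against PDC held in every alternative tried. IKDC and PDC differed by 0.76, with a 95% interval of -0.20 to 1.72.

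Jun, the AP-1 subunit that can pair with itself or with Fos proteins, had a signal of 1598 and 2115 in cDC, 564.5 and 397 in IKDC, and 724.5 and 486 in PDC. Both cDC samples lay above the other 4, and IKDC and PDC overlapped. The cDC mean was 3.86 times that of IKDC (-1.92 ± 0.31, adjusted p = 0.00336) and 3.07 times that of PDC (-1.60 ± 0.31, adjusted p = 0.0142). Leaving out IKDC replicate 2 moved the first adjusted p to 0.052. Leaving out cDC replicate 1, cDC replicate 2 or PDC replicate 2 moved the second to 0.0517, 0.131 and 0.0888. The difference between IKDC and PDC was -0.32, with a 95% interval of -0.99 to 0.36.

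Nr4a1 encodes Nur77, an orphan nuclear receptor that reports recent antigen receptor signalling in lymphocytes and is needed for patrolling monocytes. On U74A its signal was 2350.0 and 2935 in cDC, 1591.5 and 1039 in IKDC, and 152 and 133.5 in PDC. The PDC samples lay far below the other 4, and the IKDC samples lay below the cDC samples. The cDC mean was 18.5 times and the IKDC mean 9.22 times that of PDC. PDC was lower than cDC by -4.06 ± 0.29 (adjusted p = 2.87e-05) and IKDC was higher than PDC by 3.04 ± 0.29 (adjusted p = 0.000129). IKDC and cDC differed by -1.02 ± 0.29 (adjusted p = 0.0726), with a 95% interval of -1.66 to -0.38. Both PDC calls held in every alternative tried. The U74B probe set of Nr4a1 had the same order but smaller differences, with 940 and 964 in cDC, 770.0 and 476 in IKDC, and 467 and 425 in PDC. It did not pass in any comparison: PDC against cDC was -1.07 (adjusted p = 0.0725, 95% interval -1.68 to -0.45).

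Egr2 encodes a zinc finger factor with roles in hindbrain patterning, myelination and T cell tolerance. Its signal was 459 and 1189 in cDC, 425 and 374 in IKDC, and 55.4 and 59.3 in PDC. Neither PDC sample reached 60, so the fold is a lower bound: the geometric mean of cDC was at least 12.3-fold higher and that of IKDC at least 6.65-fold higher than 60. The fitted differences were -3.37 ± 0.39 for PDC against cDC (adjusted p = 0.000613) and 2.50 ± 0.39 for IKDC against PDC (adjusted p = 0.00319), and both held in every alternative tried. IKDC and cDC differed by -0.87 (adjusted p = 0.263), and by -1.54 without cDC replicate 1 and -0.20 without cDC replicate 2. The IKDC samples lay below both cDC samples, and cDC replicate 1 was at 0.386 times cDC replicate 2.

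Ier2 encodes a small nuclear protein of the immediate early response. Its signal was 3774 and 4122 in cDC, 3182 and 2099 in IKDC, and 1125 and 292 in PDC. The 3 populations did not overlap, with cDC highest and PDC lowest, but PDC replicate 1 was 3.86 times PDC replicate 2. The mean in cDC was 5.57 times and that in IKDC 3.73 times that of PDC. PDC was lower than cDC by -2.74 ± 0.49 (adjusted p = 0.00878), and IKDC was higher than PDC by 2.13 ± 0.49 (adjusted p = 0.0299). IKDC and cDC differed by -0.61 (adjusted p = 0.557, 95% interval -1.68 to 0.46). The PDC against cDC call ended without cDC replicate 1 or 2, at 0.0634 and 0.0804. The IKDC against PDC call ended without any of IKDC replicate 1 (0.192), IKDC replicate 2 (0.0638), cDC replicate 1 (0.0518), cDC replicate 2 (0.0536) or PDC replicate 2 (0.11). The same call ended with quantile normalization (0.0625), without the intensity trend (0.0805) and with 2 populations in the model (0.0508). Without PDC replicate 2 the differences were -1.80 from cDC and 1.19 from IKDC.

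Junb, an AP-1 subunit that also restrains Jun, had a signal of 1338 and 1159 in cDC, 1720.4 and 881 in IKDC, and 511 and 198 in PDC on its _r_at probe set. On its _i_at probe set the signal was 821 and 1006.5 in cDC, 805 and 661 in IKDC, and 370.2 and 119 in PDC. Both PDC samples were below the other 4 on both probe sets, whose values follow in that order. PDC was lower than cDC by -1.91 ± 0.43 (adjusted p = 0.0303) and -2.02 ± 0.42 (adjusted p = 0.021), and IKDC was higher than PDC by 1.89 ± 0.43 (adjusted p = 0.0277) and 1.71 ± 0.42 (adjusted p = 0.0423). IKDC and cDC differed by -0.02 and -0.31, and the first of these changed sign when IKDC replicate 2 or cDC replicate 1 was left out. All 4 Junb calls also ended without the intensity trend (0.0842 and 0.0636 against cDC, 0.0748 and 0.102 against IKDC). Quantile normalization ended 3 of them, at 0.0556 against cDC on the _r_at probe set and at 0.0558 and 0.0868 against IKDC. On the _i_at probe set the call against IKDC ended with a pseudocount of 1 (0.0527), with no filter (0.0501) and with 2 populations in the model (0.0688). Against cDC, both ended without cDC replicate 1 (0.18 and 0.0946), cDC replicate 2 (0.135 and 0.159) or PDC replicate 2 (0.174 and 0.0756), and the differences without PDC replicate 2 were -1.26 on both probe sets. Against IKDC, both ended without IKDC replicate 1 (0.246 and 0.235) or PDC replicate 2 (0.136 and 0.141), where the differences were 1.24 and 0.95. The second probe set also lost its call against IKDC without IKDC replicate 2 (0.143), cDC replicate 1 (0.0694) or cDC replicate 2 (0.071).

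Fos, the AP-1 partner of Jun, had 8694 and 7605 in cDC, 7103 and 5857.5 in IKDC, and 5540 and 4772 in PDC. The 3 populations did not overlap, in the order cDC, IKDC, PDC. PDC and cDC differed by -0.66 (adjusted p = 0.28, 95% interval -1.26 to -0.06), and IKDC and cDC by -0.33 (adjusted p = 0.564). Fosb, a second Fos family subunit, had 1687 and 3045 in cDC, 1469.7 and 521 in IKDC, and 1059 and 479 in PDC. Both cDC samples were above the rest, but Fosb differed within IKDC by 2.82 times, and PDC and IKDC overlapped. Its differences from cDC were -1.35 in IKDC (adjusted p = 0.161) and -1.65 in PDC (adjusted p = 0.115, 95% interval -2.73 to -0.56). With 1 sample left out, the IKDC difference ran from -2.09 without IKDC replicate 1 to -0.62 without IKDC replicate 2, and the PDC difference from -2.21 without PDC replicate 1 to -1.09 without PDC replicate 2. Dusp1, the phosphatase that inactivates the kinases p38 and JNK, had 4462 and 5308 in cDC, 3864 and 2381 in IKDC, and 2616 and 1241 in PDC on U74A. Both cDC samples were above the rest. PDC and cDC differed by -1.42 (adjusted p = 0.0645, 95% interval -2.24 to -0.61). The U74C probe set of Dusp1 had signals of 22.3 to 87.3, all under the 148.7 reached by an unspiked bacterial control on that array type, and its differences carry no order.

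**Figure D3:**
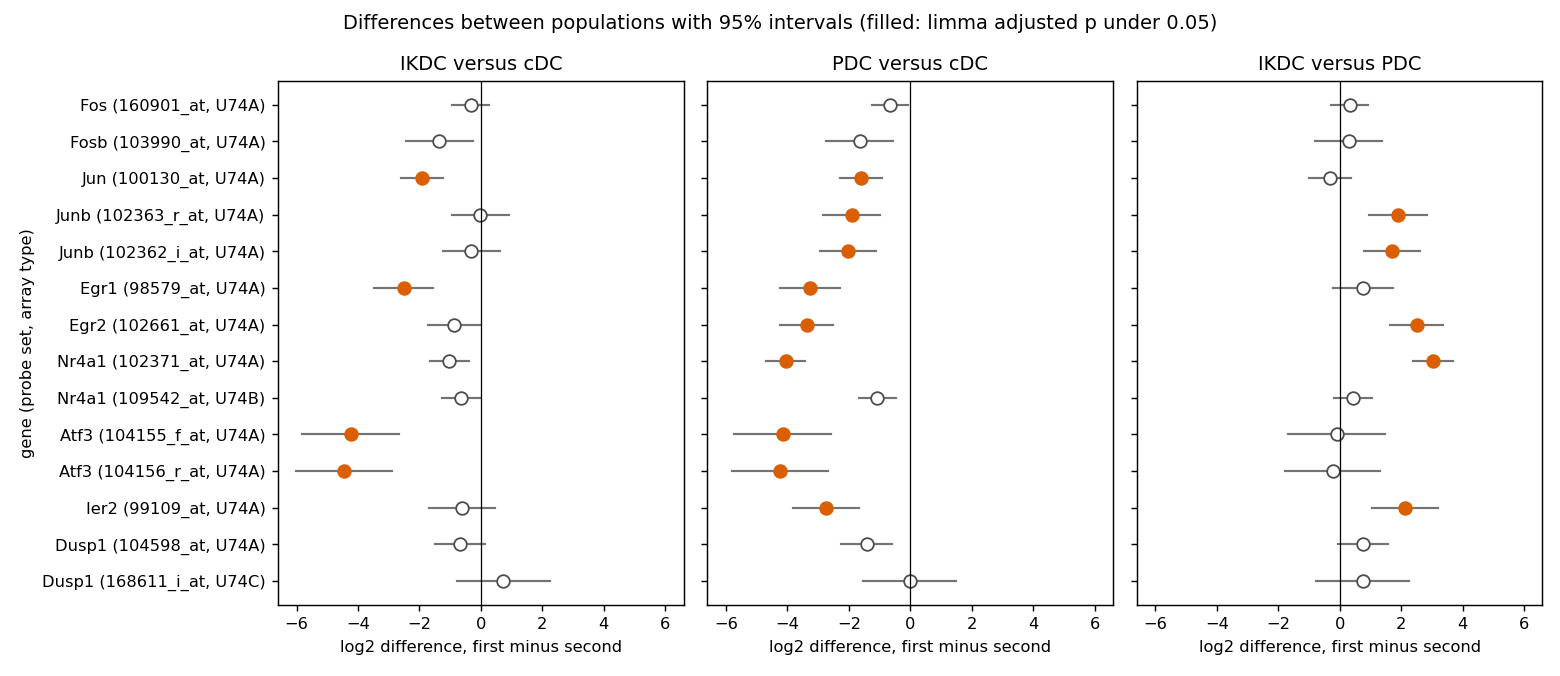
Log2 difference and 95% interval of each tested probe set in the 3 comparisons, as the first population minus the second; filled points passed the adjusted threshold of 0.05. All 14 differences between PDC and cDC lay below 0, although that of the U74C probe set of Dusp1 changed sign under quantile normalization and median centring, and 9 passed the test.

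The members were chosen with earlier results of these data known, so the counts below describe the list and do not test it. By count, 4 of 14 tested probe sets, from 3 genes, were lower in IKDC than in cDC and 0 were higher. Over all tested probe sets 5.6% passed, 2.92% lower and 2.68% higher. At an unadjusted p under 0.05 the members numbered 8, where 18.9% of all did so. In PDC against cDC 9 of 14, from 7 genes, were lower and 0 higher, where 3.65% of all passed, 1.92% lower and 1.73% higher. At an unadjusted p under 0.05 they numbered 13, beside 14.9% of all. In IKDC against PDC 5 of 14, from 4 genes, were higher and 0 lower, where 4.45% of all passed, 2.06% higher and 2.39% lower. At an unadjusted p under 0.05 they numbered 5, beside 14.5% of all. Both samples were lower in IKDC than in cDC for 12 of the 14 and higher for 1, where 26.7% of all tested probe sets were lower and 24.9% higher. Both were lower in PDC than in cDC for 13 and higher for 0, where 20.8% of all were lower and 20.5% higher. Both IKDC samples exceeded both PDC samples for 8 of 14 and were below them for 0, where 21.7% of all were higher and 21.9% lower. The median log2 difference of the 14 was -0.77 in IKDC against cDC, -1.96 in PDC against cDC and 0.75 in IKDC against PDC, beside -0.01, -0.01 and -0.02 over all tested probe sets. The sign was negative for 13 of 14 in the first comparison and for 14 of 14 in the second, where Dusp1 on U74C changed sign with quantile normalization, median centring or a pseudocount of 1.

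The samples of a population also differed from each other in the members. IKDC replicate 1 was higher than replicate 2 on 13 of 14 probe sets, with a median of 0.64 on the log2 scale, and PDC replicate 1 was higher on 13 of 14, with a median of 1.09. In cDC replicate 1 was higher on 3 and lower on 11. Over all tested probe sets replicate 1 was higher in 50.0% for IKDC, 51.0% for cDC and 53.4% for PDC. In PDC 8 of the 14 differed by over 1 on the log2 scale, against 20.3% of all tested probe sets. Atf3 in PDC was 7.56 times higher in replicate 1 on its first probe set. In PDC both signals of Egr2 and both of the U74C probe set of Dusp1 (42.9 and 37.8) were under 60. These probe sets are in the counts above, but the order of their PDC replicates is not read. The Gapdh 3′ to 5′ ratio on U74A, which rises as transcripts are shortened, was 6.0 and 3.19 in PDC replicates 1 and 2. It was 3.34 and 3.59 in IKDC, and 4.74 and 4.13 in cDC. In PDC and cDC it was higher in replicate 1 on each array type. In IKDC it was lower in replicate 1 on U74A and on U74B (3.17 and 3.84) but higher on U74C (4.65 and 3.97). The part of transcript shortening in the difference was not tested. Neutrophil markers summed to 1467 and 573 in the PDC samples, and their part in the difference was not tested.

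**Figure D4:**
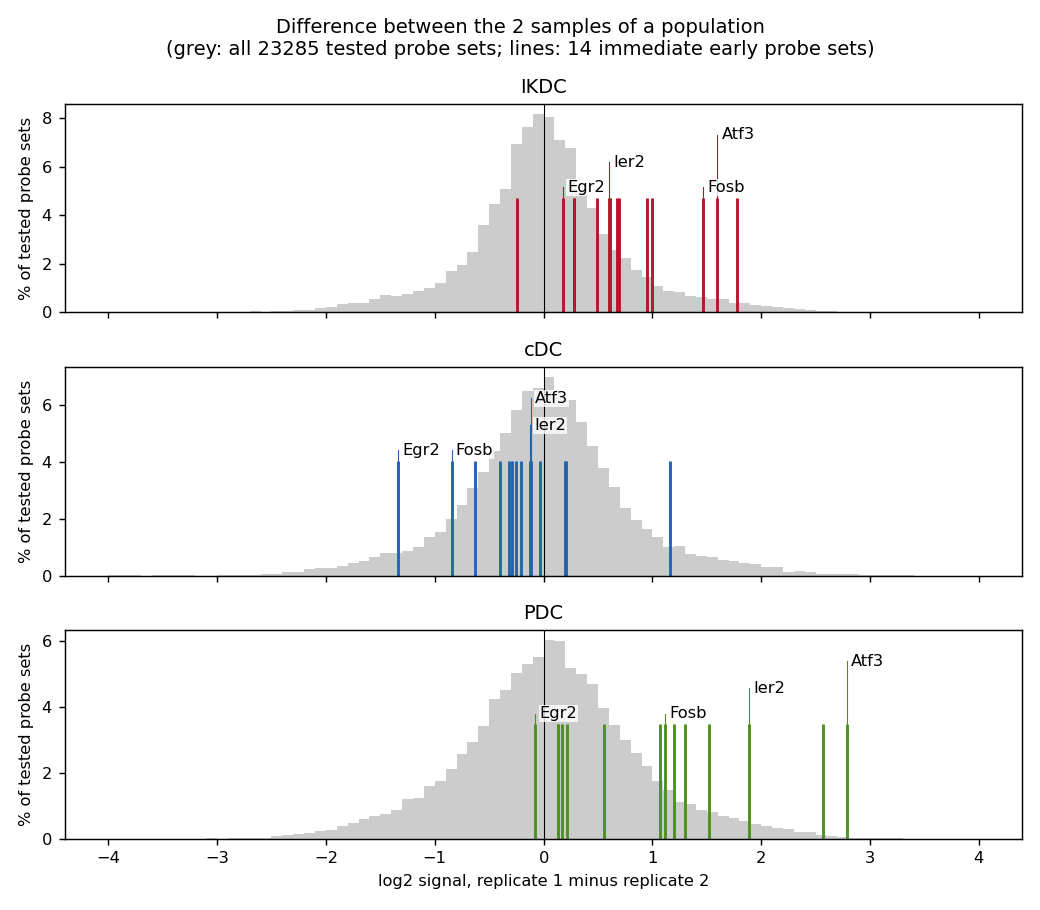
Difference between replicate 1 and replicate 2 in each population, on the log2 scale; grey bars are all tested probe sets and coloured lines are the 14 member probe sets. Member lines lie to the right of 0 for 13 of 14 in IKDC and in PDC, and for 3 of 14 in cDC.

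Over the 6 samples, log2 signals on U74A were positively correlated in all 64 pairs of probe sets from different member genes, in which Atf3 and Junb each enter with 2 probe sets, with a median Pearson r of 0.843, from 0.417 to 0.995, against a median of 0.00184 over all pairs of tested probe sets. The points share the 3 populations and the scale of each array, and the correlation was not tested. Of 3933 probe sets on U74A with 1 symbol and a range of at least 1 log2 unit, the 3 most like Jun were Cd86 (r = 0.998), Sowahc (0.991) and Knop1 (0.99), and those most like Egr1 were Cd83 (0.996), Gadd45g (0.992) and Hk2 (0.988). Cd86 and Cd83 encode surface proteins of mature dendritic cells, and Hk2 a hexokinase. Those nearest to Egr2 were Itgax (0.989), which encodes CD11c, Zfand5 (0.976) and Man1a (0.9752), and those nearest to Nr4a1 were Smpdl3a (0.989), Otulinl (0.987) and Lcp2 (0.986). For Atf3 they were Synrg (0.99), Man2b1 (0.989) and the neutrophil chemokine Cxcl2 (0.986), for Ier2 Rgs3 (0.994), Acp5 (0.983) and Cebpb (0.982), and for Junb Stk24 (0.984), Acp5 (0.982) and Rgs3 (0.981). Each r is among the highest of 3933 over only 6 points and was not tested. Some of the signals were weak: Knop1 ran from 13.6 to 67.1, and outside cDC Hk2 ran from 13.7 to 64.2. In IKDC Cd86 was at 50.2 and 29.3 and Cxcl2 at 40 and 4.6.

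The other genes of the pathway were read from lists, which were also chosen with earlier results of these data known. A list holds 1 probe set a gene, the tested one of highest mean signal. The percentages beside its counts are over all tested probe sets and so are not in the same unit. Among 33 other immediate early genes 8 were lower in PDC than in cDC and 0 higher, beside 1.92% and 1.73% of all tested probe sets, with 27 negative differences and a median of -1.15 against 0.00 over all genes tested. The 4 with the smallest adjusted p were Sgk1, a kinase of the AKT-like family (-3.12, adjusted p = 0.000887), the G protein regulator Rgs2 (1747.4 and 2209.8 in cDC, 507 and 449.9 in PDC; 0.00381), the survival gene Mcl1 (-1.52, 0.00542) and Ier3 (-2.60, 0.0159). Sgk1 signals were 892 and 938 in cDC, 1296 and 678 in IKDC, and 135.5 and 59.8 in PDC. In IKDC against cDC 2 of the 33 were higher and 3 lower, beside 2.68% and 2.92% of all. The higher were the GTP-binding protein gene Gem (1029 and 478 in IKDC, 65.1 and 89.9 in cDC; 2.95, adjusted p = 0.000669) and the growth regulator Myc (adjusted p = 0.0154), and the lower included Ier3 (-3.02, 0.00456) and the mRNA decay factor gene Zfp36 (-1.42, 0.0246). Myc was at 219 and 199 in IKDC, while both cDC samples and both PDC samples were under 60, so that IKDC was at least 3.47-fold higher than that level. In IKDC against PDC 6 were higher and 1, Trib1, lower (-1.74, adjusted p = 0.0058), beside 2.06% and 2.39% of all. The higher included Sgk1 (3.15, adjusted p = 0.000588), Gem (2.42, 0.00267) and Myc (0.00805).

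**Figure D5:**
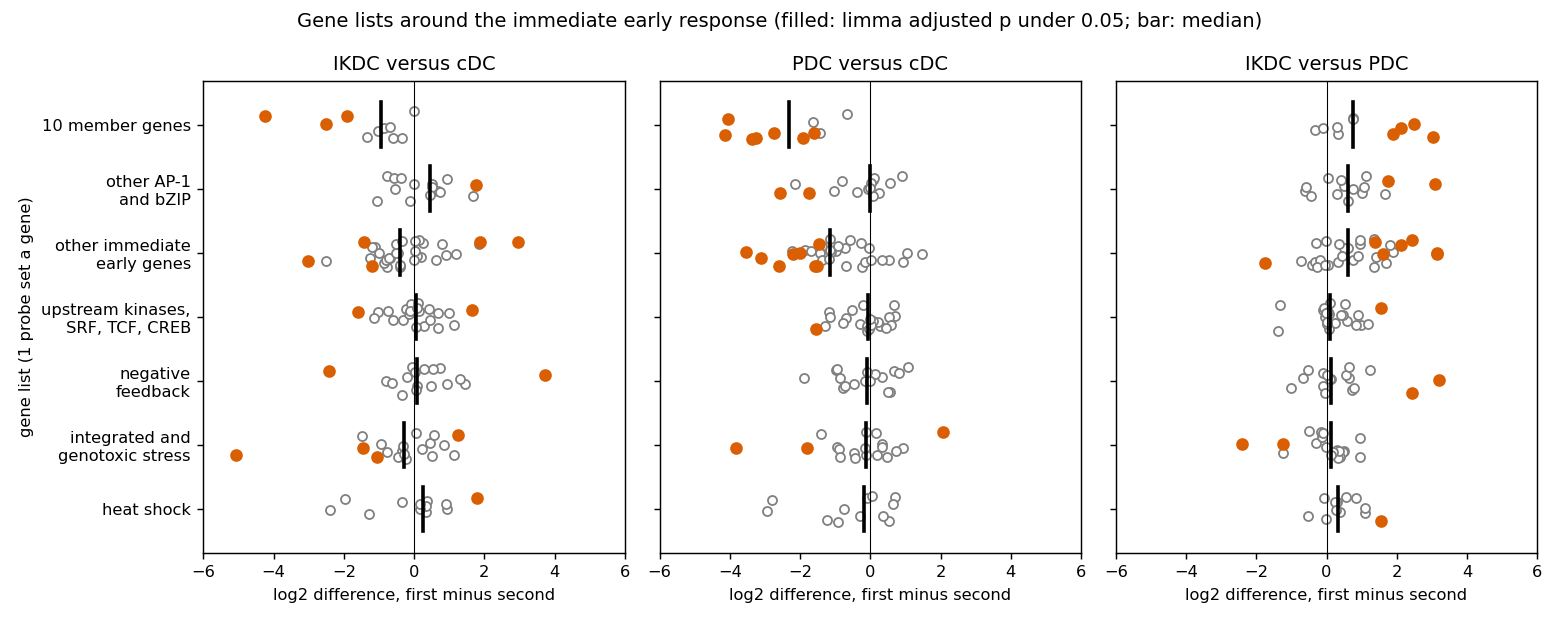
Log2 differences of the genes of each pathway list in the 3 comparisons, 1 point a gene, filled where the adjusted p was under 0.05, with a bar at the median. The other immediate early genes had 27 of 33 differences below 0 in PDC against cDC.

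Of all tested probe sets 5.6% passed in IKDC against cDC, 3.65% in PDC against cDC and 4.45% in IKDC against PDC. The calls in the lists below, which hold 1 probe set a gene, stand beside these shares over probe sets. A lone call in such a list is near them. Among 15 other AP-1 and leucine zipper genes, 2 were lower in PDC than in cDC, Fosl2 (-2.58, adjusted p = 0.00671) and Maf (-1.76, 0.0348). Both were higher in IKDC than in PDC (3.09, 0.00169, and 1.75, 0.0306). Jdp2, which encodes a repressor that dimerises with Jun proteins, was the 1 gene of this list called in IKDC against cDC. It was higher (1.75, adjusted p = 0.0443), at 353.8 and 486.3 in IKDC and 150.3 and 82.4 in cDC. Fosl2, Maf and Jdp2 were read on U74B, where an unspiked bacterial control reached 122.7. Maf in PDC (76 and 61.6), Fosl2 in PDC replicate 2 (95.8) and Jdp2 in cDC replicate 2 lay under that level. Among 17 negative feedback regulators Spry2, an inhibitor of receptor tyrosine kinase signalling, was at 26887.9 and 16975.6 in IKDC, 1782 and 1413 in cDC, and 3379 and 1603.5 in PDC. It was higher in IKDC than in cDC (3.74, adjusted p = 0.00033) and than in PDC (3.19, 0.000911). The phosphatase gene Dusp2 was higher in IKDC than in PDC (2.44, 0.00514). Dusp16 was lower in IKDC than in cDC (adjusted p = 0.0466), with both IKDC samples under 60 and cDC at least 1.59-fold above that level. None of the 17 passed in limma in PDC against cDC, while 4 had an unadjusted p under 0.05, beside 14.9% of all tested probe sets. Among 22 upstream kinases and transcription factors, Elk4, a ternary complex factor, was higher in IKDC than in cDC (1.63, adjusted p = 0.00426) and than in PDC (1.55, 0.00647), Elk1 was lower in IKDC than in cDC (-1.59, 0.0335), and the p38 kinase gene Mapk14 was lower in PDC (-1.55, 0.0116). Among 19 integrated and genotoxic stress genes, Pmaip1, which encodes the death protein Noxa, was at 3484 and 7952 in cDC, 229 and 85.6 in IKDC, and 430.5 and 289.7 in PDC, and was lower in both (-5.06, adjusted p = 0.00022; -3.84, 0.00167). Xbp1, a factor of the unfolded protein response, was higher in PDC than in cDC (2.08, 0.00446) and than in IKDC, where the difference was -2.40 (0.00123). Gadd45g, a growth arrest gene, was lower in PDC than in cDC (-1.82, 0.0282). In IKDC Hmox1 (-1.46, 0.0145), which is also on the monocyte and macrophage marker list, and Herpud1 (-1.06, 0.0375) were lower than in cDC. Also in IKDC, Herpud1 was lower than in PDC (-1.25, 0.0184), and Ddit4 was higher than in cDC (1.24, 0.0497). Among 12 heat shock genes 1 passed in IKDC against cDC, Hspd1 (1.79, adjusted p = 0.0165), beside 5.6% of all tested probe sets. In IKDC against PDC 1 passed, Dnajb4 (1.56, 0.0245), beside 4.45%. None passed in PDC against cDC, while 3 had an unadjusted p under 0.05, beside 14.9% of all tested probe sets. Hspa1a was not called but was at 1579 and 1090 in cDC, 76.4 and 671.5 in IKDC, and 51.6 and 427 in PDC, so that in IKDC and PDC it was higher in replicate 2, where the members were higher in replicate 1; this gene was chosen after its values were seen.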

How the data were processed

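RNA isolated with Trizol and cleaned with an RNeasy kit went through 2 rounds of amplification and biotin labelling, per the labels' protocols; such amplification shortens transcripts. The deposited values are linear signal intensities that the authors made with GCOS 1.1.1 and scaled to a target of 150, per the labels, and the submitters' processing notes name MAS5. No detection calls were used. Gene symbols came from the platform annotation: 29131 of 36701 probe sets had 1 symbol, 724 several and 6846 none, and 198 control probe sets were left out.

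The analysis used log2(signal + 16). It kept probe sets reaching 60 on 2 or more of the 6 arrays. The linear models of limma 3.58.1 (R 4.3.3) took the 3 populations together, 1 array type at a time, and eBayes moderated the variances with a trend in intensity. Two-sided p-values were Benjamini-Hochberg adjusted across the 3 array types, with a threshold of 0.05, and intervals are at 95%. The fit was tested on simulated data. A gene of a list was represented by its tested probe set with the highest mean signal, and up to 4 called genes per list and comparison with the smallest adjusted p were named. For members with a call, the 3 genes whose signals correlated best were named. The members and lists were chosen with earlier results of these data known. Alternatives are given in the closing section.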

Additional observations from a re-analysis of the deposited data

How the results depend on the processing

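The 16 alternatives changed the pseudocount, the filter, the scaling, the model, the adjustment or the samples. The calls of Egr1, Egr2 and the U74A probe set of Nr4a1 in PDC against cDC held in all 16. Those of Egr2 and of Nr4a1 on U74A in IKDC against PDC also did. The same was true of the second Atf3 probe set, of the _r_at design, in IKDC against cDC. With 1 sample left out, the members called numbered 2 to 4 in IKDC against cDC, 3 to 10 in PDC against cDC and 2 to 5 in IKDC against PDC, and all probe sets called numbered 593 to 1656, 327 to 719 and 493 to 869; a lone sample is then assumed to vary like the other groups. In IKDC against PDC, 2 members were called with quantile normalization, 2 without the intensity trend and 3 with only the 2 populations compared. With the replicate block, 6, 11 and 5 members were called; correlations of deviations between same-numbered samples were -0.09 to 0.24, with 1 of 9 above 0.1 (PDC and cDC on U74A), and the labels do not say what a number marks, so the numbers were not taken to pair samples. Signs turned for uncalled differences. The Dusp1 probe set on U74C in PDC against cDC was 0.026 with pseudocount 1, 0.15 with quantile normalization, 0.062 with median centring and -0.60 to 0.56 with 1 sample left out (0.042 without PDC replicate 2). Junb in IKDC against cDC was -0.49 to 0.46 with 1 sample left out (0.087 without cDC replicate 1). In IKDC against PDC, Fosb was -0.44 to 1.03 (-0.27 without PDC replicate 2) and the Atf3 probe sets were -1.49 to 1.30 and -1.52 to 1.05, positive without IKDC replicate 2 (0.70 and 0.66) or PDC replicate 1. Calls were gained by Nr4a1 on U74A in IKDC against cDC with the filter at 200 (0.0472), quantile normalization (0.0449), adjustment within each array type (0.0415) and the block (0.0398), and by Dusp1 on U74A in PDC against cDC with the same 4 (0.0435, 0.0436, 0.0392 and 0.00578) and without PDC replicate 1 (0.0237). Fosb was called with the block alone (0.0355 in IKDC and 0.0136 in PDC against cDC), and Nr4a1 on U74B in PDC against cDC with the filter at 200 (0.046). The cause was not tested. With 2 samples a population, the number of arrays limits the precision.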
